A study of Mus musculus with 14 samples.

Results

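Nuclei of group 7, 1 of 12 numbered groups in a single-nucleus RNA table of mouse liver, are described here through the average of each gene in the wild type and in the Ms4a7 knockout (KO) pool. The 2 columns of the group were taken from 24 columns in all, and the table holds 21911 uniquely named genes. Of these, 17007 were above 0 in the wild type column and 15163 in the KO column, and 4012 had a mean level of at least 0.5 UMI per 10000 (a UMI, unique molecular identifier, marks 1 captured RNA molecule). Each pool combines nuclei of 3 livers whose donors ate a diet causing fatty, inflamed liver (nonalcoholic steatohepatitis, NASH) over 22 weeks, so that there is 1 library per genotype, no replicate check and no p-value for the nuclei. Ms4a7 encodes a membrane protein of macrophages, and its deletion is the only stated difference between the pools. The 12 bulk libraries form 4 groups of 3: wild type and Ms4a7 KO mice on the NASH diet for 22 weeks, and 2 groups of chow-fed wild type mice. The tail vein of the chow-fed mice received lipid droplets (LD) or buffered saline (PBS) daily for 6 days. Whether the bulk livers on the NASH diet are those pooled for nuclei cannot be told from the labels. How many nuclei a column averages is not given in the sources used here, and neither is the age, sex or strain of the mice.

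Cholangiocytes line the bile ducts. They carry a primary cilium that faces bile, secrete bicarbonate and water in answer to the hormone secretin, and in injured liver take part in the ductular reaction, in which duct-like cells expand and release signals to stellate cells and macrophages. SOX9, ONECUT and GRHL2 are transcription factors known for their part in building or keeping the biliary epithelium.

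The 6 marker genes given for the group all had their highest mean level in it. Pkhd1, which encodes the ciliary protein fibrocystin, reached 87.6 UMI per 10000 in the wild type and 84.2 in the KO column, and 3.10 in the next highest group, group 1. Spp1, the secreted phosphoprotein osteopontin, stood at 18.3 and 28.6, and at 0.504 in the next highest group. Kcnma1, a calcium-activated potassium channel, stood at 10.9 and 9.45. Cdh6, a cadherin, had 6.63 and 5.27, the nuclear receptor gene Hnf4g 4.56 and 5.34, and the annexin gene Anxa13 3.62 and 4.23. Of 26 cholangiocyte markers in all, 23 were at or above 0.5 of the highest group's level in group 7, while no other group had more than 3, which was group 11. The exceptions to the label were the duct keratins: Krt19 had 0.169 and 0.403 in group 7 against 0.480 and 0.887 in group 11, and Krt7 had 0.227 and 0.301 against 1.63 and 1.17. Group 11 also had the highest sum of 11 mesothelial markers, of which Msln, listed at 0 and 0.0386, and Wt1, at 0.0115 and 0.0217, were near 0 in group 7. The sum of that list in group 7, 5.21 and 5.20, was the second highest of the 12 groups (6.96% of group 11), most of it from Gpm6a (3.25 and 2.73) and Ezr (1.28 and 1.37). The third marker highest elsewhere was Cd24a, in group 5.

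Marker genes of other liver cells were low but not absent in group 7. The summed level of 20 hepatocyte markers was 30.3 in the wild type and 82.1 in the KO column, and its mean was 26.7% of that in group 1, the highest. The 12 stellate cell markers summed to 2.26 and 1.97 (1.21% of the highest group), 12 sinusoidal endothelial markers to 3.21 and 3.29 (1.73%), 13 macrophage markers to 2.13 and 1.54 (2.90%), and 12 T and NK cell markers to 0.552 and 0.416 (0.610%). The 11 portal fibroblast markers reached 8.98 and 8.82, 48.0% of the highest group, nearly all of it from Gas6 (5.18 and 6.36) and Slit2 (3.58 and 2.13). Defining genes of that list were at or near 0 in group 7: Gli1 was listed at 0 in both columns and Thy1 at 0.00791 and 0. Ms4a7 itself was 0.0303 and 0.0152 in group 7, against 1.25 and 0.622 in group 3, where it was highest, so that it was detected in both pools.

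A gene was called leading where it reached 0.5 UMI per 10000 in both columns of group 7 and at least 4 times the highest of the other 11 groups after 0.05 was added to each level. This chose 100 of 3633 genes with that level in both columns (2.75%). The values that choose these genes are a description, since the groups of nuclei were formed from the same measurements. Just inside the limit stood Pdgfd (4.22 times the highest other group), Agrn (4.18) and Anxa5 (4.05), and just outside it Llgl2 (3.88), Hmgcll1 (3.83) and Rab27b (3.78). Levels were compared for 1 gene across groups. UMIs were not scaled by gene length, so that the order of genes by level given below is a description only.

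The genes with the largest ratio to any other group included ion channels, adhesion molecules and regulators of epithelial identity. Kcnip4, a potassium channel interacting protein, led with 73.2 times the next group (55.5 UMI per 10000 in wild type and 26.2 in KO, and 0.508 in group 5). Gm609 followed with 69.5 times, Kcnma1 with 63.8, Cdh6 with 63.3, A230001M10Rik with 45.3, Spp1 with 42.5, Nipal2 with 42.3 and Anxa13 with 40.9. Chst9, a carbohydrate sulfotransferase, was 38.6 times higher, the metalloprotease gene Adamts16 33.7 times, the Reelin adaptor Dab1 31.6 times, Hnf4g 31.4 times and Mtcl1, which links microtubules, 29.9 times. Grhl2, an epithelial transcription factor, had 2.38 and 2.26, a level 34.4 times that of the next group. Pkhd1 was 27.3 times higher, the tetraspanin Tspan8 26.0, Scara3 25.5, the kinase Wnk2 25.4, the secretin receptor Sctr 24.9 and the laminin chain Lamc3 24.5. The leading genes with the highest levels were, beside Pkhd1, Kcnip4 and Spp1, the neuregulin receptor Erbb4 (53.5 and 51.8), the zinc finger gene Glis3 (34.2 in both columns), the growth factor Pdgfd (32.9 and 31.6), the scaffold Shank2 (24.9 and 25.1), 2610307P16Rik (23.9 and 23.05), the kinesin Kifc3 (20.9 and 21.1) and Etl4 (19.1 and 15.7).

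The next highest group of a leading gene was most often group 11, for 18 genes, followed by group 1 for 16 and group 8 for 12. No leading gene had group 3 in that place. The plot of these genes over 12 groups shows group 7 as the bright pair of columns, with weaker columns for Erbb4 in groups 0 and 1 and for Bicc1, Krt19 and Krt7 in group 11.

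Among biliary transcription factors, 12 of 20 were highest in group 7 and 6 were leading genes. Sox9 had 1.83 and 2.06, 5.65 times the next group. Glis3, Hnf4g, Grhl2 and Ehf (2.36 and 1.94), an epithelial ETS factor, were leading members as well. Onecut2 (12.9 and 13.0), Onecut1 (5.12 and 6.45) and Zbtb20 (51.0 and 47.5) were highest in group 7 without passing the 4-fold limit. None of the 15 members with a mean of at least 0.5 was 2-fold apart between the KO and the wild type column, and of the 5 below it Foxa1 was, with 0.0553 in wild type and 0.218 in KO.

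Genes of the primary cilium and of polycystic disease were highest in group 7 in 12 of 22 cases, with Pkhd1, Glis3 and Dcdc2a (13.3 and 11.5) as leading members. Bicc1, an RNA-binding protein mutated in cystic kidney, had 45.7 and 39.1 in group 7 but also 30 and 23.3 in group 11. Pkd2, the polycystin 2 channel, had 2.23 and 2.72. None of the 15 members with a mean of at least 0.5 was 2-fold apart between the columns, and of the 7 below it Nphp4 was, with 0.124 in wild type and 0.0106 in KO.

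Bile ion and water transport genes were highest in group 7 in 9 of 27 cases. Cftr, the chloride channel opened by cyclic AMP, had 4.62 in wild type and 2.48 in KO, a log2 ratio of -0.88. Slc5a1, a sodium and glucose transporter, had 1.54 and 1.70, and the sodium pump subunit Atp1b1 had 1.96 and 2.29. Of 15 measured receptors and cyclases that act on bile secretion, Sctr (1.68 and 1.29) was the leading member. The muscarinic receptor Chrm3 had 10.1 and 8.20 and the bile acid receptor Nr1h4 1.998 and 1.45, both with a higher group elsewhere. The cyclase Adcy8, with 1.01 in wild type and 0.161 in KO, was the member past 2-fold.

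Junction and keratin genes were highest in group 7 in 16 of 30 cases, among them the scaffold Magi1 (56.6 and 55.5), Magi3 (9.73 and 8.79), E-cadherin Cdh1 (5.98 and 5.99) and Cdh6. Of 20 basement membrane and integrin genes 6 were highest there, including Itgb8 (3.01 and 3.41) and Itgb6 (1.22 and 0.997), integrin chains that activate TGF-beta. In the Notch list only 2 of 17 measured genes were highest in group 7, the ligand Jag1 (3.08 and 2.01) and the target Hes1 (0.635 and 1.06), whereas the coactivator Maml2 (11.2 and 10.3) and Notch2 (3.08 and 2.66) were higher elsewhere. The Hippo list had 4 of 20 highest there, with the scaffold Wwc1 (12.9 and 11.8) and the YAP target Ankrd1 (1.58 and 1.299). Among 27 measured ductular reaction signals 8 were highest in group 7, led by Pdgfd, Spp1 and Vegfa (2.24 and 2.62). Pigr, the receptor that carries antibody into bile, was the member past 2-fold among the 8 with a mean of at least 0.5, with 0.504 in wild type and 1.25 in KO. In the ERBB list Erbb4 and the ligands Tgfa (1.14 and 1.06) and Hbegf (0.416 and 0.280) were highest there, while Egfr (3.96 and 5.12) was not.

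Onecut2 and Onecut1 were highest in group 7, and the promoters of leading genes were searched, after these values were seen, for the ONECUT letters ATTGATT on both strands, and with them for letters of other epithelial and ciliary factors. Of the 100 leading genes, 67 had 81 windows in the RefSeq promoter table for GRCm38.p6, from 250 bases before to 50 bases after the annotated start, and the 250 bases before the start were searched. ONECUT letters stood in 4 of 81 windows (4.94%), those of Itgb6, 1700110K17Rik and a pair of overlapping windows of Egflam, and in 859 of 32851 windows of all genes (2.61%). RFX letters (GTTGCC, AT, then the inverse GGCAAC, up to 3 mismatches), named for factors known to act on genes of cilia, also stood in 4 of 81 windows (4.94%) and in 2.74% of all. The RFX match in Lrriq1 had 1 mismatch. These stretches are shown because they hold the ONECUT matches and the closest RFX match, with the match in capitals, 5′ to 3′ on the strand of the gene. They are chr15:7398391-7398455 (minus strand, Egflam, match at -35 to -29), chr2:60673834-60673900 (minus strand, Itgb6, match at -177 to -171), chr9:40333268-40333334 (plus strand, 1700110K17Rik, match on the other strand at -174 to -168) and chr10:103236323-103236371 (minus strand, Lrriq1, match at -19 to -6).
Egflam: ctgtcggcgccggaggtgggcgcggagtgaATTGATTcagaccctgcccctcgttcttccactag
Itgb6: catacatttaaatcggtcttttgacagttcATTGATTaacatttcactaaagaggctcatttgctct
1700110K17Rik: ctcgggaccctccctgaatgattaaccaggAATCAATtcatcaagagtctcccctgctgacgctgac
Lrriq1: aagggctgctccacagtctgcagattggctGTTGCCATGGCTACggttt

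In the nuclei, Egflam, which encodes the extracellular matrix protein pikachurin, had 3.36 UMI per 10000 in wild type and 2.14 in KO, 18.8 times the next group. Itgb6, the beta 6 integrin subunit, had 1.22 and 0.997 (20.99 times), and Lrriq1 0.830 and 0.744 (13.3 times). The transcript 1700110K17Rik had 1.80 and 1.92 (6.08 times). TEAD letters (GGAATG) stood in 9.88% of leading windows and 12.6% of all, and TATA letters (TATAAA) in 6.17% and 12.4%. The GRHL letters AACCGGTT were in none of 81 windows and in 0.116% of all. These are matches of letters only, and no printed match overlapped a match of another motif searched.

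Between the pools, the leading genes of group 7 had nearly the same median ratio as all genes, but 6 of them were at least 2-fold lower. The sets were chosen differently: leading genes had to reach the level limit in both columns, the 4012 genes only in their mean. A gene that fell below the limit in either column could not be leading, so that large losses were in part shut out by the choice. Over the 100 leading genes, the median log2 ratio of KO to wild type (0.05 added to both) was -0.01, with quartiles of -0.24 and 0.24, and 49 were above 0. Over all 4012 genes the median was -0.01 with quartiles of -0.21 and 0.19. The summed level of the leading genes was 624 UMI per 10000 in wild type and 589 in KO. Of the 4012 genes, 64 were at least 2-fold higher in KO (1.6%) and 30 at least 2-fold lower (0.748%), of which 1 and 6 were leading genes. The leading gene past 2-fold upward was Dab1 (3.95 and 8.05). Those downward were Kcnip4, Ctnna2 (5.14 and 1.95), Adamts16 (4.14 and 1.80), Asz1 (3.22 and 1.38), Tmem45a (3.10 and 1.51) and Fam163a (1.51 and 0.583). The count of higher genes depended on the level asked for, with 186 of the genes at 0.2 and 29 of those at 1 UMI per 10000, and the count of lower genes was 86 and 17. The lowest value above 0 was 0.00186 in the wild type and 0.00868 in the KO column, so that the KO column was measured in coarser steps.

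**Figure D1:**
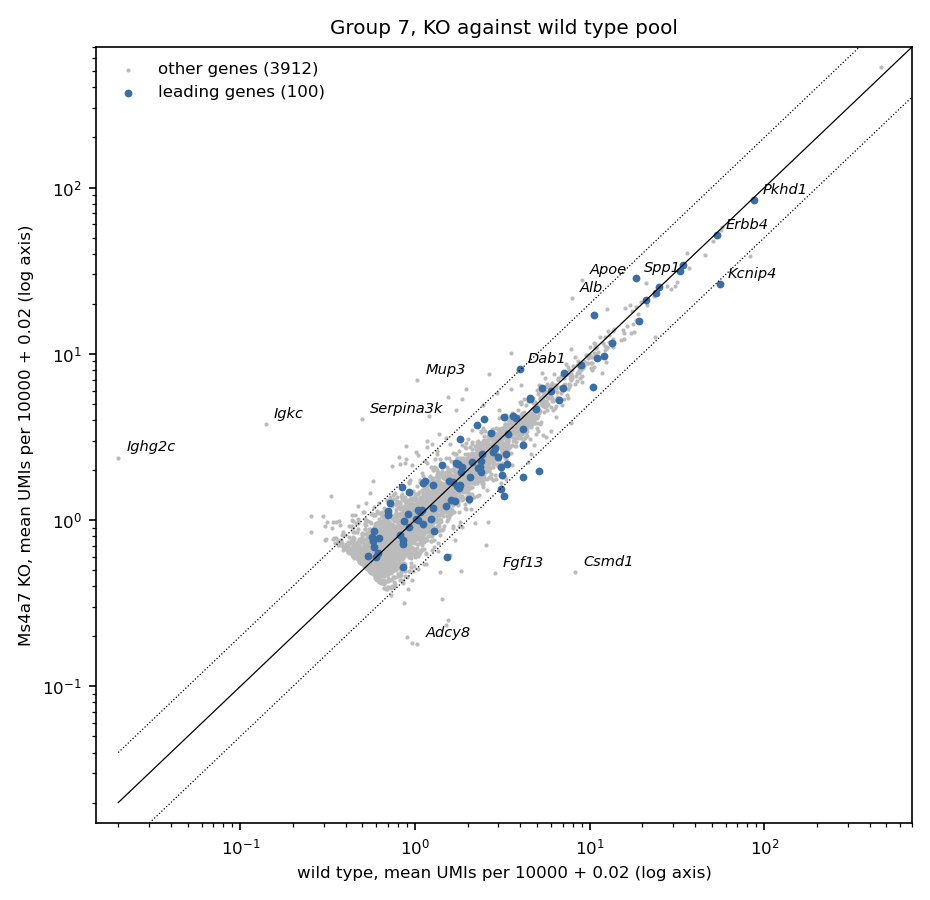
Mean UMIs per 10000 of 4012 genes in group 7, wild type (horizontal) against KO (vertical), with 0.02 added for the log axes; blue points are the 100 leading genes, the solid line is equality and dotted lines are 2-fold. Most leading genes, which had to reach the level limit in both columns, lie along the line, with Kcnip4 below it. Ighg2c, Igkc, Serpina3k and Mup3 lie above the line and Csmd1, Fgf13 and Adcy8 below.

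Of the 64 higher genes 12 belong to the list of 20 hepatocyte markers, and many of the 64 were higher in the KO column of the other groups as well. Serpina3k, a serine protease inhibitor, had 0.475 in wild type and 4.04 in KO, a log2 ratio of 2.96, against a median of 2.68 over the other 11 groups. Mup3, a major urinary protein, had 1.005 and 6.92 (log2 ratio 2.72, other groups 2.53), and Mup20 1.93 and 6.11 (1.63 and 1.25). The plasma glycoprotein gene Apoh had 0.309 and 1.38 (1.99 and 1.21), the apolipoprotein gene Apoa1 1.52 and 5.47 (1.81 and 1.28) and Serpina1c 1.18 and 4.20 (1.79 and 2.45). The cytochrome gene Cyp2d9 had 0.233 and 1.04 (1.94 and 1.69), and Hamp, the iron hormone hepcidin, 0.279 and 1.03 (1.72 and 1.58). Apolipoprotein genes made up 8 of the 64, Serpina genes 4 and ribosomal protein genes 5. Mup, Serpina1 and immunoglobulin genes have near-identical copies, so that their single values are uncertain. Of the 64 genes, 32 had a ratio above 0 in all 11 other groups, and the median ratio of the other groups was itself at least 2-fold for 29. The sum of the 20 hepatocyte markers was higher in KO in every group, by log2 0.49 in group 0 to 1.46 in group 8, and by 1.44 in group 7, where all 20 were higher and 12 passed 2-fold. Whether RNA free of nuclei or nuclei of mixed kind enter these values was not tested. When the median ratio of the other groups was subtracted, an alternative chosen after seeing the data, 39 genes were 2-fold higher, 10 of them among the 64, and 22 were 2-fold lower, 17 of them among the 30.

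**Figure D2:**
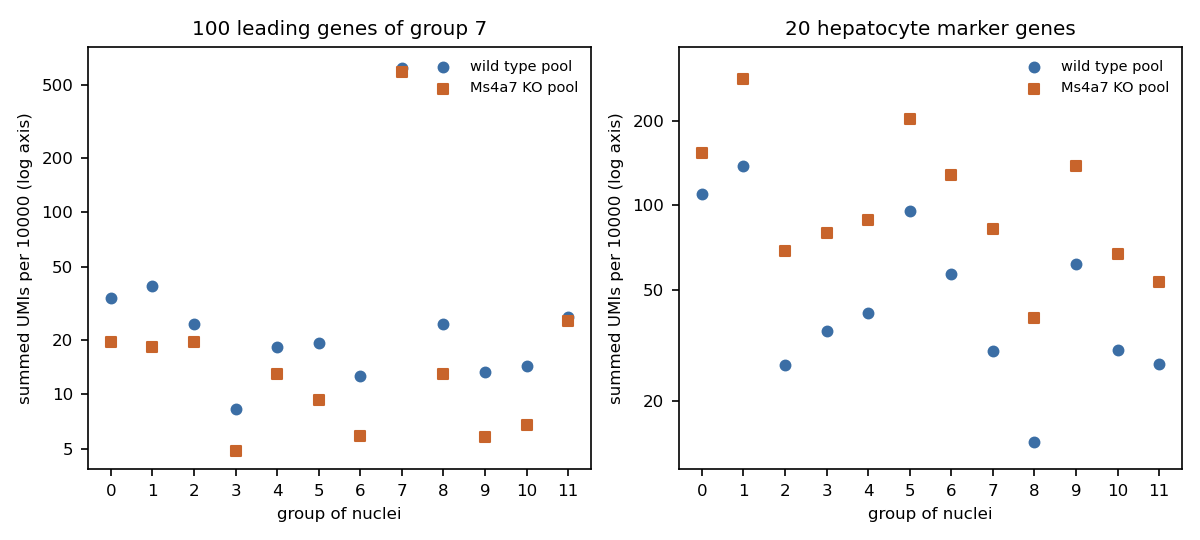
Summed UMIs per 10000 (log axes) of the 100 leading genes of group 7 (left) and of 20 hepatocyte markers (right) in 12 groups of nuclei, wild type (circles) and KO (squares). Hepatocyte markers are higher in KO in all 12 groups, and the leading genes are lower in KO in all 12, with the nearest values in groups 7 and 11.

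Immunoglobulin transcripts differed from that pattern. Igkc, the kappa light chain, had 0.120 in wild type and 3.76 in KO in group 7, against a median log2 ratio of 0.11 in the other groups, and Ighg2c was listed at 0 in wild type and had 2.35 in KO. Jchain, the joining chain of antibody, had 0.0408 and 0.749. In group 9, with the highest sum of 10 B and plasma cell markers, Igkc had 15.4 and 20.3, Jchain 1.80 and 2.45 and Ighg2c 0.0820 and 0.104, so that Ighg2c was lower there than in the KO column of group 7. The 10 markers summed to 1.17 and 4.90 in group 7, and Pax5 (0.104 and 0), Cd79a (0.0272 and 0), Ebf1 (0.361 and 0.139) and Bank1 (0.429 and 0.124) were lower in the KO column. The part of plasma cells in these values was not tested.

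Among the genes lower in KO, the ratio was largest for Csmd1. Csmd1, a large membrane protein with complement control domains, had 8.24 in wild type and 0.464 in KO, a log2 ratio of -4.01, against a median of -0.90 over the other groups. Fgf13, an intracellular partner of sodium channels, had 2.84 and 0.460 (log2 ratio -2.50, other groups -1.21). Adcy8 had a ratio of -2.33, the sodium channel Scn7a of -2.02 (0.876 and 0.178) and Slc35f1 of -1.997 (1.40 and 0.314), with medians of 0, -0.06 and 0 elsewhere. Of the other 11 groups, Adcy8 was listed at 0 in both columns in 6, Scn7a in 4 and Slc35f1 in 3. A group with 0 in both columns has a ratio of 0, so that these medians do not show a steady level. The adhesion receptors Adgrl3 (1.82 and 0.475) and Adgrv1 (2.51 and 0.689) had ratios of -1.83 and -1.79. Lrrc9 (1.36 and 0.466) had -1.45 and was higher in KO or level in the other groups, with a median of 0.20. Map2, a microtubule protein of neurons, had 2.59 and 0.951 (-1.40, other groups -0.93), and Ctnna2, the neural alpha catenin, -1.38 against -0.33. Of the 30 lower genes, 17 differed by 2-fold or more from the median of the other groups, whereas 10 of the 64 higher genes did. Groups with 0 in both columns enter these medians. Among the lower genes they numbered 7 for Gm830 and 5 for Fam163a. Among the higher genes they numbered 6 for Arhgef38 and 5 for Ighg2c, but 0 for Serpina3k and Mup3. The 2 counts thus depend in part on where a gene was detected.

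Erbb4, Bicc1 and Pkhd1 had nearly the same level in both columns of group 7 and were lower in the KO column of all 11 other groups. Erbb4 had a log2 ratio of -0.05 in group 7 and was at least 2-fold lower in all 11 other groups, with a median of -2.39. In group 1, for instance, it had 13.3 in wild type and 2.17 in KO. Bicc1 had -0.22 against a median of -1.96 and Pkhd1 -0.06 against -1.45. Spp1 was higher in KO in group 7, with 0.64, and in group 10, with 0.51, and lower in the other groups (median of the 11 -0.96). Kcnip4 was lower in KO in group 7 and more so in the other groups, with -1.08 against -1.87. The sum of leading genes was lower in KO in all 11 other groups, by log2 -0.07 in group 11 to -1.19 in group 9, and without Erbb4 by -0.02 to -0.995. Gene by gene, the median ratio of the other groups was below 0 for 78 of 100 leading genes and for 2806 of 4012 genes, with medians of -0.10 and -0.10. It was at least 2-fold lower for 6 of the 100 and for 22 of the 4012.

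**Figure D3:**
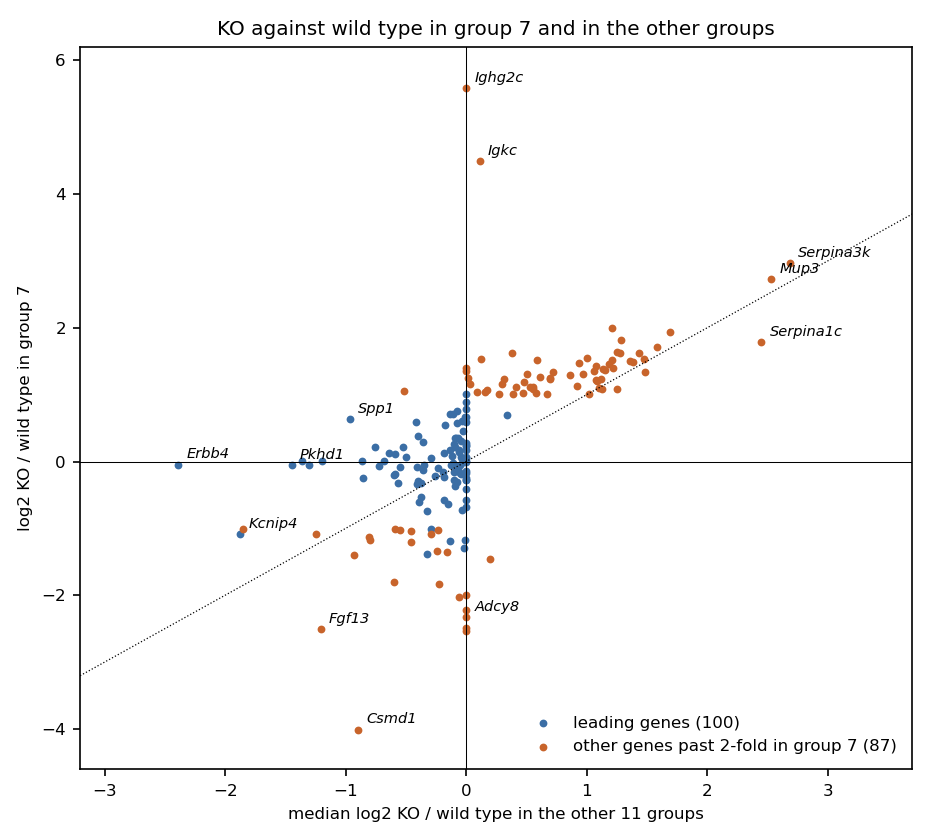
Log2 ratio of KO to wild type in group 7 (vertical) against the median of that ratio in the other 11 groups (horizontal), for the 100 leading genes (blue) and 87 other genes past 2-fold in group 7 (orange); the dotted line is equality. Serpina3k and Mup3 lie near the dotted line, Erbb4 lies at 0 on the vertical and at -2.39 on the horizontal axis, and Igkc and Csmd1 lie far from it.

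The spread of the ratio over genes differed between groups of nuclei. Its interquartile range was 0.393 in group 7, and it lay from 0.335 in group 0 to 0.421 in group 8 over groups 0 to 4, 7 and 8. It was 0.501 in group 6, 0.564 in group 9, 0.749 in group 10 and 0.916 in group 11. In group 5 it was 1.52, and 20.4% of genes were 2-fold higher and 17.9% 2-fold lower. In group 7, 1.6% and 0.748% of genes passed those limits. The number of nuclei, which enters this spread, is unknown.

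Bulk libraries gave replicated values for the leading genes. In bulk tissue, fewer cells of a type and less RNA per cell cannot be told apart. Ms4a7 went against the labels in both tables. Its normalized counts were 9.70, 25.8 and 23.3 with the wild type label and 102, 117 and 136 with the KO label. In the other table they were 62.2, 84.7 and 163 in the libraries labelled PBS and 10.5, 7.60 and 9.32 in those labelled LD. The labels are kept below, but it is in doubt which of the 2 comparisons each table holds. The lower values of leading genes described below for labelled LD could therefore belong to the Ms4a7 KO, and those of labelled KO to lipid droplets. The tables were scaled separately, with 21945394 to 23126164 and 39318264 to 41346464 reads in genes per library. The labels do not say whether replicates are separate animals, so that p-values measure the spread between these libraries.

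In the libraries labelled KO against wild type no leading gene was called by limma (Benjamini-Hochberg adjusted p under 0.05 over 15827 genes, of which 3.72% were called, 3.02% higher and 0.701% lower). Of 100 leading genes 97 were in the table and 34 passed the filter on low values. An unadjusted limma p under 0.05 was found for 6 of the 34 and for 2960 of all 15827 genes, a similar share. edgeR called 0 of the leading genes and DESeq2 4, all higher. Spp1 was 382, 533 and 269 normalized counts in the wild type libraries and 822, 1386 and 659 in the KO libraries, so that the groups did not overlap. Its log2 fold change was 1.26 with an SE of 0.32 and an adjusted p of 0.0793 (limma), which ranged from 0.000646 to 0.195 over the alternatives. Cdh6 was 4.85, 9.04 and 0 against 18.4, 17.7 and 80.6 (log2 fold change 2.99, SE 0.95, limma adjusted p = 0.144). Cdh6 passed the filter through the KO libraries alone, so that the filter fixed its direction and its values are a description. Pkhd1 was 92.1, 114 and 104 against 66.4, 78.0 and 109, which overlapped (-0.31, SE 0.22, limma adjusted p = 0.518). Kcnma1, Anxa13 and Hnf4g did not pass the filter, with means of 0.430, 9.11 and 2.56 in wild type and 0.788, 7.25 and 3.13 in KO. Among 18 leading genes with a mean of at least 50 the median log2 fold change was -0.01, and over all tested genes it was -0.02. Over genes with a mean of at least 50, 3.16% were called higher and 11.5% had groups that did not overlap with KO higher. Of 14 ductular reaction signals of that level 4 were called higher and none lower, and for 10 the KO libraries were all above the wild type libraries. The 4 were the chemokines Ccl2 (log2 fold change 4.39, SE 0.34, limma adjusted p = 0.00225) and Cxcl1 (2.85, SE 0.20) and the growth factors Pdgfb (2.29, SE 0.40) and Tgfb1 (1.66, SE 0.31). The summed cholangiocyte identity list was 72344 to 80893 in wild type and 93967 to 116923 in KO libraries. Most of that difference came from Cp, the plasma copper oxidase ceruloplasmin, with 26490, 22914 and 27388 against 40835, 53751 and 47963, the only one of 6 list members of that level that was called. Beside these, 6 of 9 macrophage markers of that level were called higher, with sums of 4534 to 8873 and 32059 to 56624, and the part of macrophages in the higher values was not tested.

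In the libraries labelled LD, leading genes of group 7 were lower than in those labelled PBS, and 26 were called, all of them lower. For 3 of the 26, named below, the filter on low values fixed the direction. Over 14900 genes tested, 4.16% were called, 2.21% lower and 1.95% higher. Of the 100 leading genes 93 were in the table, 1 of them under a newer name, and 72 passed the filter. Since a gene can pass that filter through the PBS libraries alone (10 leading genes had 10 or more in each of those and in no LD library), the set is described over genes with a mean of at least 50 over the 6 libraries. Of 39 such leading genes 20 were called lower, 38 had a fold change below 0, and for 31 the groups did not overlap. Their median log2 fold change was -1.02. Over 11987 genes of that level 2.53% were called lower, 12.4% had groups that did not overlap with LD lower, and the median of all genes of that level was 0.01. Of 46 leading genes with at least 10 normalized counts in every library, 17 were called lower, against 307 of 13436 such genes in all. For 32 of the 46 and 12.4% of the 13436 the groups did not overlap, with LD lower. Of 21 leading genes that did not pass the filter, 19 had lower means on the log scale in the LD libraries, against 2959 of 5437 such genes in all.

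Tm4sf4 was 2629, 2861 and 3097 normalized counts in the PBS libraries and 1621, 1703 and 1799 in the LD libraries (log2 fold change -0.74, SE 0.09, limma adjusted p = 0.00428). Every PBS library was above every LD library. This held for each of the 26 called genes, but for 3 of them the filter left no other outcome. Among the 10 largest changes, Tmem45a fell by 2.57 on the log2 scale (SE 0.38) and Sytl5, a synaptotagmin-like protein, by 2.48 (0.39). The epithelial factor Ehf was 115, 69.4 and 103 against 6.30, 33.6 and 22.8 and fell by 2.38 (0.53). The fatty acid elongase Elovl7 fell by 2.22 (0.33), Cdh6 by 2.14 (0.48), Tspan8 by 1.99 (0.33) and the kinase Pak6 by 1.97 (0.40). The other 3 of the 10, the secretin receptor Sctr, Sgpp2 and Adamts16, passed the filter through the PBS libraries alone and so had to differ. Their values are a description: Sctr was 22.1, 19.8 and 21.9 against 0, 3.26 and 2.07, at few reads per library. Epcam, the epithelial adhesion molecule used to sort bile duct cells, was 223, 169 and 184 against 37.8, 65.1 and 69.4 (-1.76, SE 0.26). Each of the 10 largest changes and Spp1 lost its call when 1 of the libraries was left out, with no change of direction. Without LD library 1 the call was lost for 6 of these 11 and without LD library 2 for 5. With a PBS library left out, Sctr, Sgpp2 and Adamts16 did not pass the filter and were not refitted, and of the other 8 the call was lost for 5, 8 and 7 without PBS libraries 1, 2 and 3. The count of called leading genes was 14 and 17 without LD libraries 1 and 2, and 11, 7 and 8 without PBS libraries 1, 2 and 3. It was 17 after quantile normalization, all lower.

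**Figure D4:**
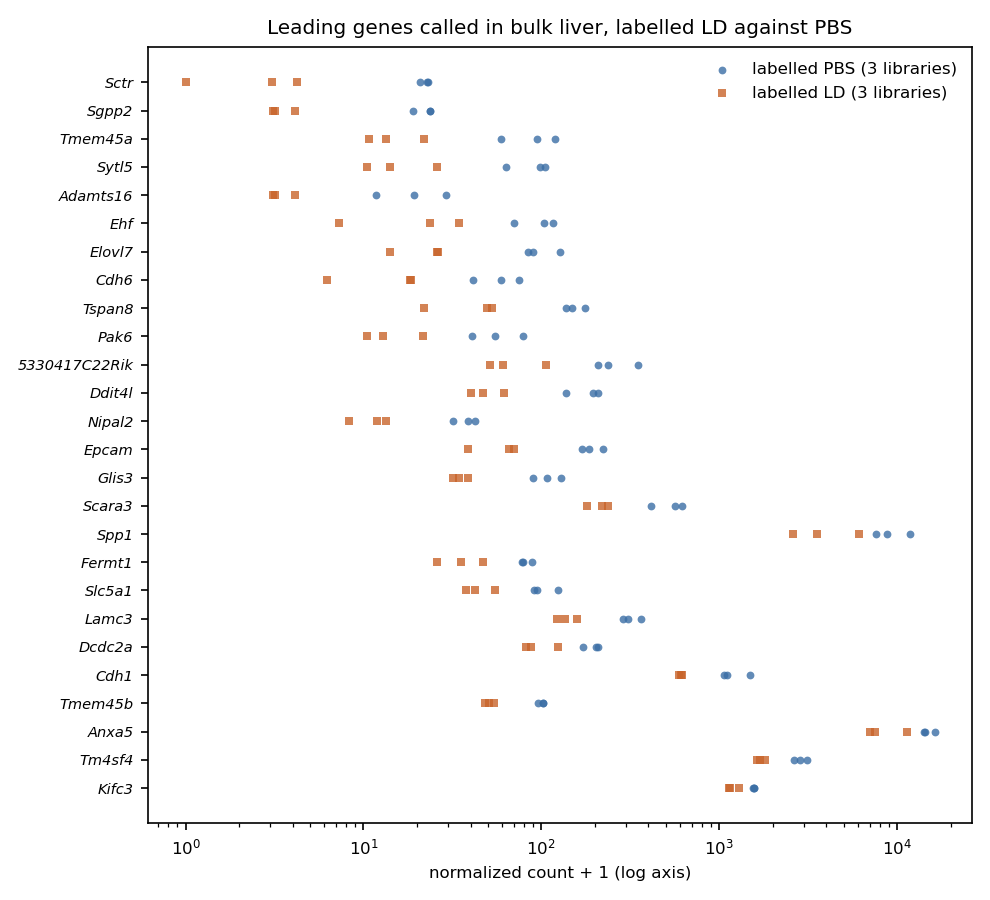
Normalized counts plus 1 (log axis) of the 26 leading genes called in bulk liver, by library: circles are the 3 libraries labelled PBS and squares the 3 labelled LD. The squares lie to the left of the circles for every gene, from Sctr at the top to Kifc3 at the bottom. For Sctr, Sgpp2 and Adamts16 the filter fixed this.

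Of the 6 markers given for the group, Spp1 was 8797, 7610 and 11765 against 2608, 3560 and 6135 (log2 fold change -1.26, SE 0.28, limma adjusted p = 0.0385). Pkhd1 was 411, 373 and 319 against 298, 284 and 196, groups that did not overlap (-0.52, SE 0.18, limma adjusted p = 0.159). Anxa13 was 100.3, 50.5 and 71.9 against 21.0, 58.6 and 15.5, and Kcnma1 15.04, 14.4 and 13.7 against 3.15, 5.43 and 14.5, and both overlapped. Hnf4g did not pass the filter, with means of 6.23 and 2.48. Some leading genes, chosen after their values were seen, did not differ beyond their spread. Clu, whose product is a secreted chaperone, had a log2 fold change of -0.03, Fgfr3 of -0.06 and Dsg2 of -0.09, with overlapping groups. In nuclei these 3 had their next highest level in group 1, the group with the highest hepatocyte marker sum, but so had Tm4sf4 and Sytl5, which were called lower. Of 11 leading genes with that next group and a mean of at least 50 in bulk, 3 were called lower (median log2 fold change -0.64), and of 28 with another next group 17 were (median -1.20). The difference between these sets was not tested.

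By list, and over genes with a mean of at least 50, 8 of 14 cholangiocyte identity genes were called lower and none higher, with a median log2 fold change of -0.91. Over all genes of that level 2.53% were called lower and 2.22% higher. The biliary transcription factors gave 6 lower and 2 higher of 18. Of the cilium genes 3 of 19 were called lower and of bile transport genes 4 of 20. Junction and keratin genes gave 3 of 24 and ductular reaction signals 6 of 18, all lower. The lists share members: the 3 cilium genes called, Glis3, Dcdc2a and Bicc1, were all among the 8 identity genes called. So were Glis3 of the transcription factors and Epcam and Krt19 of the junction genes. Krt19, which was low in group 7, had means of 167 and 91.0 (-0.87, SE 0.19, limma adjusted p = 0.0413). Other cell types moved in the same libraries. Of 8 portal fibroblast markers of that level 4 were called lower, of 12 stellate cell markers 4, and of 13 macrophage markers 4 lower and 1 higher, while 2 of 20 hepatocyte markers were called higher and none lower. The summed level of the portal fibroblast list ran from 6774 to 7120 in PBS and from 3411 to 5489 in LD libraries, the stellate list from 41420 to 48041 and 33055 to 35074, and the hepatocyte list from 4735200 to 5880740 and 5925750 to 6623180. The macrophage list overlapped, with 16228 to 25730 and 13584 to 17813, and no marker of these 4 lists was at 0 in all libraries. Their part in the fall of the leading genes was not tested.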

How the data were processed

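The deposited signal values of nuclei are averages that the authors took per group and genotype, on a scale of 10000 UMIs per nucleus, as read from the column sums. Cell Ranger and Seurat 4.0.1 on genome build mm10 are named in the submitters' processing notes, as are FastQC, STAR and DESeq2 for bulk libraries. The deposited bulk signal values are gene counts divided by a size factor per library, as read from the values, since dividing by a step per library gave whole reads (tolerance 0.01). The deposited log2 fold changes and the deposited p-values of the authors were not used.

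Of 21915 entries 4 with a repeated name were left out. Ratios used log2 after adding 0.05, over genes with a mean of at least 0.5. Depth and the number of nuclei are unknown, doublet treatment is not stated, and no interval is given. Bulk genes that reached 10 normalized counts in at least 3 of 6 libraries were tested with limma 3.58.1 in R 4.3.3 (trend, 2-sided, log2 of the value plus 1, Benjamini-Hochberg, threshold 0.05, no covariate). edgeR 4.0.16 and DESeq2 1.42.0 on recovered reads, other pseudocounts, filters, quantile normalization, a replicate block and leaving out each library were alternatives, and the scripts were tested on simulated data. Named genes are the 20 leading genes with the largest ratio and the 10 with the highest level. Also named are the 10 largest KO ratios per direction without Gm, Rik and mitochondrial names. In bulk they are the 10 largest changes called and the given markers. From the lists, some leading members and some past 2-fold are named. Other list members passed 2-fold in group 7 at a mean below 0.5, among them Slc10a2, Heyl, Tead4 and Tgfb1 (lower in KO) and Cldn3, Lama3, Lamb1 and Edn1 (higher). The group, its markers, 31 gene lists and rules were chosen with earlier results of these data known. Groups follow the labels. Some members of the lists are counted but their values are not reported here. The table labelled wild type and KO carries a name for lipid droplets and the other a name for Ms4a7, so labels and table names disagree.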

Additional observations from a re-analysis of the deposited data

Results flagged for a closer look

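Igkc moved in opposite directions in groups 7 and 5 of the nuclei: its log2 ratio of KO to wild type was 4.49 in group 7 (0.120 and 3.76 UMI per 10000) and -4.55 in group 5 (1.12 in wild type and listed at 0 in KO). In the KO column of group 5 only 6417 genes were above 0, and the lowest value above 0 was 0.227, against 15163 and 0.00868 in group 7. In group 5, 20.4% of genes were 2-fold higher in KO and 17.9% 2-fold lower. With 1 pooled library per genotype the difference was not tested.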

How the results depend on the processing

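The count of leading genes was 152 at a level of at least 0.2 and within 1.5 times of 100 in the other 6 settings, from 74 at a level of at least 1 to 150 without group 11. In group 7, genes 2-fold higher in KO numbered 42 with 0.2 added, 186 at a level of at least 0.2, 29 at a level of at least 1 and 39 after subtracting the other groups. Genes 2-fold lower numbered 86 and 17 at those levels. After that subtraction the ratio was -0.66 for Serpina1c and 0.79 for Kcnip4, both with the opposite sign. In bulk, DESeq2 called 1241 genes (against 589) for labelled KO and 1221 (against 620) for labelled LD. Leaving out 1 library gave 108 to 479 and 135 to 1205. Leading genes called were 0 to 1 for labelled KO and 7 to 31 for labelled LD when 1 library was left out. DESeq2 called 4 in the former, and quantile normalization 17 in the latter. In 5 of 6 refits of the latter with 1 library left out the count fell by more than 1.5 times, and all called leading genes were lower in each.

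Correlations of the deviations of same-numbered libraries were 0.12, -0.03 and -0.02 with genotype labels and 0.05, -0.04 and 0.13 with PBS and LD labels. Between libraries of unlike number they ran from -0.07 to 0.09 and from -0.17 to 0.16. With 3 libraries per group these values cannot decide whether the numbers pair libraries. With the replicate number as a block, 822 and 793 genes were called, with 1 and 29 leading genes among them. The number of nuclei, which sets the counting error of every ratio in group 7, is unknown. In bulk, unlike in nuclei, reads carry no molecular identifiers.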

Other observations

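Further lists in group 7 of the nuclei are given as values, without a test. Of 14 antigen presentation genes, 5 had a mean of at least 0.5 UMI per 10000, and all 5 were above their wild type level in KO, with a median log2 ratio of 0.60 against -0.01 over all 4012 genes. H2-K1, a class I heavy chain, had 2.99 and 4.58, and B2m, its light chain, 1.31 and 2.57. None of the 5 passed 2-fold. The sum of the 14 was higher in KO in all 12 groups of nuclei, by log2 0.20 to 0.76, and by 0.64 in group 7. The 5 measured stress and unfolded protein genes at that level were above wild type as well (median 0.48), with 1.16 and 2.19 for the chaperone Hspa5. The sum of that list was also higher in KO in all 12 groups, by 0.39 to 0.88, and by 0.61 in group 7. The 4 interferon response genes at that level had a median of 0.10, and that list's sum was higher in KO in all 12 groups too, by 0.07 to 0.74. Of the cell cycle list, Ccnd1, a cyclin, had 1.06 and 0.633 and Ccnd2 1.5 and 1.10, while the proliferation gene Top2a was at 0.0205 and 0.0462. The 13 mitochondrially encoded genes summed to 94.1 and 103.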
